A study of Mus musculus with 6 samples.

Results

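The miRNAs described here are the strands of miR-126, mmu-miR-126-3p (MIMAT0000138) and mmu-miR-126-5p (MIMAT0000137), which were taken by name from a mouse miRNA panel and make 2 of its 566 probes for mouse miRNAs. The panel held 599 probes in all, the other 33 being for miRNAs of mouse viruses. In the NanoString assay used, a miRNA binds a colour-coded probe, a few probes being shared by closely related miRNAs, and single bound molecules are counted without amplification. RNA (33 ng per µl) came from fresh frozen livers of mice on a C57Bl/6 background. The 3 *Apcfl/fl* livers (APC fl/fl in the labels) carried hepatocarcinoma (HCC) with active Wnt/β-catenin signalling, and the 3 *Apc+/+* livers were healthy controls. *Apcfl/fl* mice are homozygous for a floxed, hypomorphic allele of *Apc*, a gene whose product brings β-catenin to degradation. The sources used here name no Cre driver for these livers, and they give neither the age of the mice nor the share of tumour tissue in each liver. The question put to the data was whether the level of each strand, or the balance between them, differed between HCC and normal liver.

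MiR-126 is the best known miRNA of endothelial cells. Its hairpin lies in an intron of *Egfl7*, a gene for a secreted protein of the vessel wall, and both strands of the hairpin are kept as mature miRNAs. The 3p strand represses inhibitors of the signal from vascular endothelial growth factor, such as *Spred1* and *Pik3r2*, and thereby supports vessel growth and integrity. The 5p strand represses *Dlk1* and supports the renewal of endothelial cells. In liver the main endothelial population is the lining of the sinusoids. In whole liver RNA, fewer endothelial cells and less miR-126 per cell cannot be told apart.

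The sequences were taken from RefSeq (GRCm38.p6), where *Mir126a*, also named mmu-mir-126, holds the hairpin. Of the 2 strands, 1 was matched in that table by name, mmu-miR-126-3p as mmu-miR-126a-3p. The hairpin of 73 bases lies at chr2:26591357-26591429 on the plus strand, within *Egfl7*. The mature strand and its hairpin are shown because the first carries the seed that sets the targets of the 3p strand and the second shows where this strand sits in its precursor. Capitals mark the seed (bases 2 to 8) in the mature miRNA and the 3p strand (bases 46 to 67) in the hairpin.
mmu-miR-126-3p: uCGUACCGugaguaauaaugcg
Mir126a hairpin: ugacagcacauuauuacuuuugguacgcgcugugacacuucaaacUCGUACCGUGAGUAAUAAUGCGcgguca

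Among the 1679 mature miRNA names of the table, the seed CGUACCG occurred in 1 only, mmu-miR-126a-3p itself. The same locus holds a second hairpin, *Mir126b*, of 58 bases on the opposite strand and wholly within *Mir126a*. Its 3p strand has another seed, GCGUACC, which shares the bases CGUACC with the seed of miR-126-3p at a shifted position. The longest run shared by these 3p strands is 10 bases, marked in capitals below. The panel had 0 probes for miR-126b, and whether the probe for miR-126-3p also captures it was not tested.
mmu-miR-126-3p: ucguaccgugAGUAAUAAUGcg
mmu-miR-126b-3p: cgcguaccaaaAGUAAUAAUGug

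The total mouse miRNA count was 82942 to 133331 in *Apc+/+* and 96399 to 132547 in *Apcfl/fl* livers, so depth overlapped between the genotypes. The probes for viral miRNAs served as background, with a limit (their mean plus 2 SD within a liver) of 13.1 to 27.8 counts. Both strands stood far above it, miR-126-3p at 98.9 to 253 times and miR-126-5p at 11.5 to 29.4 times that limit. The probe for miR-720 took 33% of the counts of *Apc+/+* liver 3 and 15.7% to 25.7% of those of the other livers. Counts were rounded and scaled with edgeR's TMM method. Its factors were 0.661 to 1.03 in *Apc+/+* and 0.993 to 1.25 in *Apcfl/fl* livers, lowest in *Apc+/+* liver 3. Of the marker lists for other cells, the 4 hepatocyte miRNAs were above the limit in every liver, while 0 of the 2 nervous miRNAs and 1 of the 3 muscle miRNAs were above it in any liver.

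MiR-126-3p was among the most abundant miRNAs of every liver. Its deposited counts were 2623, 2660 and 2504 in normal liver and 2752, 2428 and 4846 in *Apcfl/fl* liver. Before scaling the *Apcfl/fl* livers thus lay on both sides of the controls, with *Apcfl/fl* liver 3, one of the deepest libraries, far above the other 5. These counts put it at rank 4, 5 and 8 of the 566 mouse probes in *Apc+/+* and at rank 6, 8 and 5 in *Apcfl/fl* livers. The probes with more counts in all 6 livers were 3, namely miR-720, miR-122 and miR-22. MiR-122 is the main miRNA of hepatocytes, and the miR-720 probe reads a sequence that also occurs in a tRNA. Levels of different probes are set side by side here with the reservation that the capture by each probe is unknown.

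After TMM scaling miR-126-3p had 3310, 3265 and 3076 normalized counts in normal liver, against 2476, 2572 and 3182 in *Apcfl/fl* liver. *Apcfl/fl* livers 1 and 2 lay below every control, and liver 3 lay among the controls, so the genotypes overlapped. Normal livers averaged 3217 ± 125 (SD, n = 3) and *Apcfl/fl* livers 2743 ± 383 (SD, n = 3). This is a log2 fold change of -0.23 (standard error 0.18, 95% interval -0.66 to 0.20), or 0.853-fold with an interval from 0.631 to 1.15. The difference did not pass edgeR's quasi-likelihood test (p = 0.25, adjusted p = 0.46 with Benjamini-Hochberg adjustment over the 174 miRNAs tested), and a two-sided exact permutation test over the mice gave p = 0.2. The interval leaves room for a decrease to 0.631-fold but not for a 2-fold change in either direction. The direction rests on the scaling. As a share of all mouse miRNA counts, miR-126-3p took 3.16%, 2.86% and 1.88% in normal liver, against 2.85%, 2.36% and 3.66% in *Apcfl/fl* liver, and with the total count as library size its log2 fold change was 0.17, when the median of all tested miRNAs stood at 0.45.

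MiR-126-5p was the less abundant strand. Its deposited counts were 393.67, 325.67 and 414.67 in normal liver and 320.67, 343.67 and 564.67 in *Apcfl/fl* liver, at rank 27 to 35 and 34 to 42 of the mouse probes. The highest and the lowest of these 6 counts were both from *Apcfl/fl* livers. After TMM scaling the values were 497, 400.2 and 509.7 in normal liver, against 288.8, 364.4 and 371 in *Apcfl/fl* liver. All 3 *Apcfl/fl* livers then lay below all 3 controls, the nearest values being 371 and 400.2. Groups without overlap were found for 33.9% of the 174 miRNAs tested, so that 1 of the 2 strands without overlap is not a result about miR-126. Normal livers averaged 469.1 ± 60 (SD, n = 3) and *Apcfl/fl* livers 341.4 ± 45.7 (SD, n = 3).

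The log2 fold change of miR-126-5p was -0.46 (standard error 0.21, 95% interval -0.95 to 0.03), or 0.728-fold with an interval from 0.517 to 1.02. It did not pass edgeR's quasi-likelihood test (p = 0.064, adjusted p = 0.23), and the two-sided exact permutation test gave p = 0.1, the smallest value that 3 mice against 3 allow. As a share of all mouse miRNA counts the strand took 0.475%, 0.350% and 0.311% in normal liver, against 0.333%, 0.334% and 0.426% in *Apcfl/fl* liver, where the groups overlapped, and with the total count as library size its log2 fold change was -0.06.

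**Figure D1:**
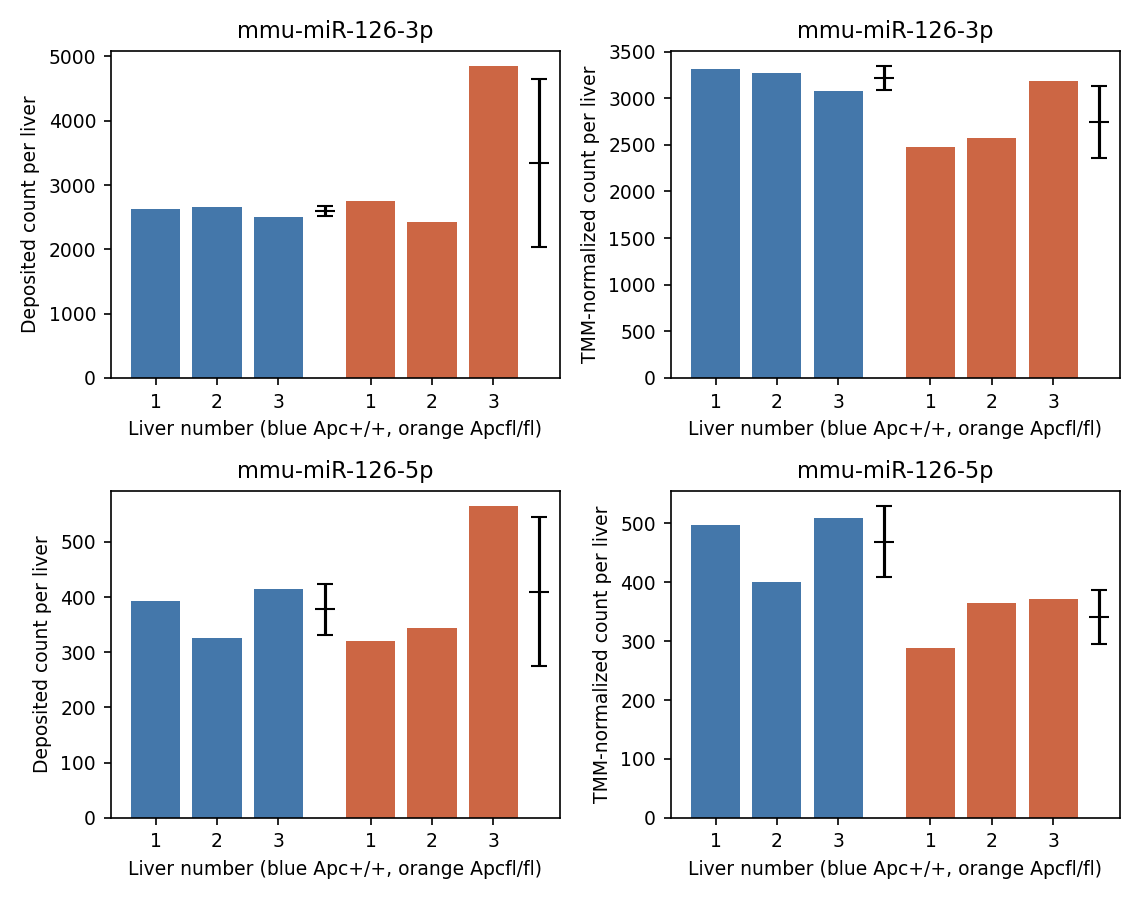
Counts of mmu-miR-126-3p (top) and mmu-miR-126-5p (bottom) in each liver, as deposited (left) and after TMM scaling (right). Each bar is 1 liver and the black mark beside each genotype is its mean with SD (n = 3). After scaling, only miR-126-5p has all *Apcfl/fl* livers (288.8 to 371 normalized counts) below all *Apc+/+* livers (400.2 to 509.7).

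Of the 174 miRNAs tested, 0 (0%) had an adjusted p-value under 0.05 in edgeR's test, while at an unadjusted p-value under 0.05 there were 19 with a lower and 24 with a higher level in *Apcfl/fl* liver. With DESeq2 in place of edgeR 29 miRNAs passed the adjusted threshold, and neither strand of miR-126 was among them (adjusted p = 0.47 for miR-126-3p and 0.21 for miR-126-5p). The SD of the log2 normalized count within a genotype was 0.14 for miR-126-3p and 0.20 for miR-126-5p, against a median of 0.50 over the tested miRNAs, and 5 and 16 of the 174 had a smaller SD. The spread was also smaller among abundant miRNAs in general, with a median of 0.28 over the 50 most abundant, and miR-192 (0.14) and miR-29a (0.17) were close to miR-126-3p. The size of the change was small too for miR-126-3p, with 37 of the 174 miRNAs nearer to 0, and lay close to the middle for miR-126-5p, with 78 nearer to 0 (median size 0.52).

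**Figure D2:**
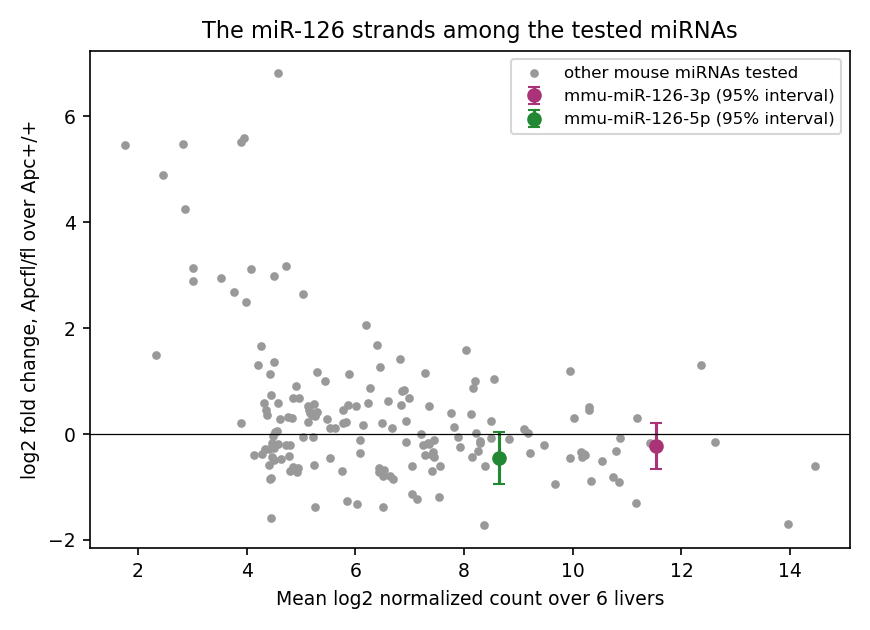
Log2 fold change between *Apcfl/fl* and *Apc+/+* liver against the mean log2 normalized count over the 6 livers, for the 174 tested miRNAs (grey) and the strands of miR-126 (coloured, with the 95% interval of edgeR's fit). Both strands lie a little below 0 with intervals that include it (-0.66 to 0.20 and -0.95 to 0.03).

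The ratio of the strands needs no scaling between livers, since both counts come from the same RNA. MiR-126-3p was counted 6.66, 8.17 and 6.04 times as often as miR-126-5p in normal liver and 8.58, 7.06 and 8.58 times as often in *Apcfl/fl* liver. The 3p strand was thus the dominant one in all 6 livers. *Apc+/+* liver 2 lay above *Apcfl/fl* liver 2, so that the genotypes overlapped. The 3p strand made 86.9%, 89.1% and 85.8% of the counts of both strands in *Apc+/+* livers and 89.6%, 87.6% and 89.6% in *Apcfl/fl* livers. The exact (Clopper-Pearson) 95% interval of the share, which covers counting error only, was 84.5% to 87.0% in *Apc+/+* liver 3 and 87.9% to 90.2% in *Apc+/+* liver 2. How far the ratio reflects the molecules in the cell depends on the capture by the probes, which is unknown, whereas a capture that is the same in every liver cancels out of the differences between livers.

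The ratio averaged 6.96 ± 1.09 (SD, n = 3) in normal livers and 8.08 ± 0.876 (SD, n = 3) with *Apcfl/fl*. On the log2 scale the means were 0.22 apart, higher in *Apcfl/fl* liver, with SDs of 0.22 in normal and 0.16 in *Apcfl/fl* livers (p = 0.2 in the two-sided exact permutation test). A limma fit over the ratios of the 2 arms of every hairpin with enough counts gave the same difference with a standard error of 0.20, a 95% interval from -0.27 to 0.72 and an adjusted p-value of 0.47. This fit shares its spread between hairpins, among them miR-434, whose counts in normal liver were at background. From the miR-126 ratios alone, with a pooled SD, the standard error was 0.16 and the 95% interval -0.22 to 0.66. A shift of the balance by 1 log2 unit lies outside both intervals.

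**Figure D3:**
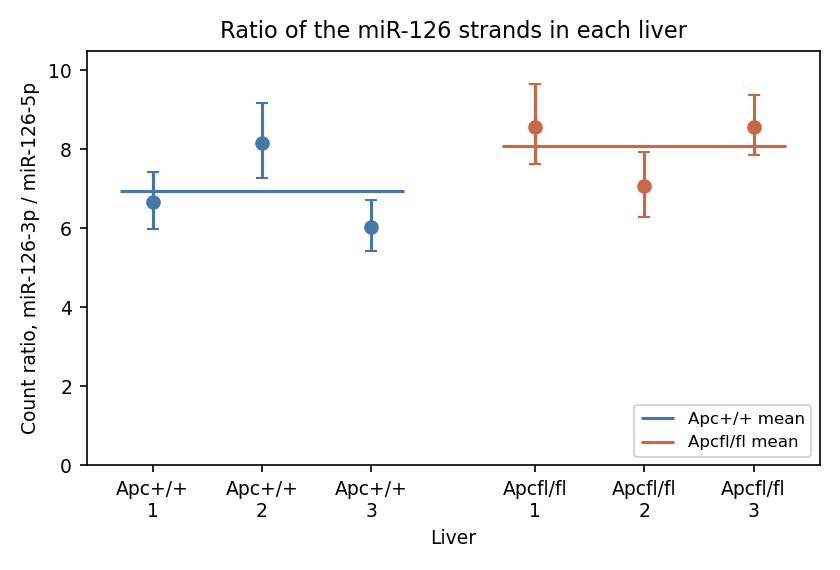
Count of miR-126-3p divided by the count of miR-126-5p in each liver, with the exact 95% interval for counting error and a line at the mean of each genotype. The ratios run from 6.04 to 8.58, and *Apc+/+* liver 2 (8.17) lies above *Apcfl/fl* liver 2 (7.06).

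Of 65 hairpins with probes for both arms, 6 had a mean count of at least 20 for each arm and entered that fit, and 0 (0%) had an adjusted p-value under 0.05, with miR-199a and miR-434 (2) at an unadjusted p-value under 0.05. MiR-434 reached the count minimum only through *Apcfl/fl* livers. Its arms averaged 6.33 (3p) and 12.7 (5p) deposited counts in normal liver, where both were under the background limit in all 3 livers, so its ratio there is one of background counts and is not described further. Both arms of miR-423 were above that limit in 2 of the 3 normal livers, and the arms of the other 4 hairpins in all 6 livers. MiR-126 was the most lopsided of the other 5 hairpins towards its 3p strand, its log2 ratio averaging 2.79 ± 0.22 (SD, n = 3) in normal livers and 3.01 ± 0.16 (SD, n = 3) with *Apcfl/fl*. MiR-199a, a miRNA of stellate and other mesenchymal cells, had 0.66 and 1.19. The arms of miR-574 (0.42 and 0.86) and miR-423 (-0.28 and -0.06) were nearer to balance, and in miR-125a (-2.01 and -3.12) the 5p strand was dominant. The difference between genotypes was 0.22 for miR-126, nearly that of miR-423, and ran from -1.11 for miR-125a to 0.54 for miR-199a.

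The strands followed each other only in part. Over the 6 livers the log2 normalized counts of miR-126-3p and miR-126-5p had a Pearson r of 0.74, and this placed miR-126-5p at rank 20 among the 173 other tested miRNAs by likeness to miR-126-3p. The pattern most like miR-126-3p was that of miR-103 (r = 0.99), followed by miR-107 (0.97), miR-10a (0.96), miR-100 (0.94) and let-7g (0.90). MiR-103 had 177.9, 190.3 and 142.5 normalized counts in normal liver, against 76.5, 79.4 and 179.2 in *Apcfl/fl* liver. Like miR-126-3p, it had its low values in *Apcfl/fl* livers 1 and 2 and a value near the controls in *Apcfl/fl* liver 3. MiR-103 and miR-107 are nearly identical in sequence, and whether their probes share signal was not tested. For miR-126-5p the nearest were let-7f (0.91), miR-532-5p (0.91), miR-101b (0.90), miR-100 (0.89) and miR-148a (0.88). Of these, miR-100 was above the background limit in only 5 of the 6 livers. MiR-532-5p averaged 25.7 deposited counts in normal and 29.3 in *Apcfl/fl* liver, near that limit. These correlations rest on 6 livers that share their scaling factors and, in part, the difference between genotypes, and are given as a description.

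Other miRNAs known from endothelial cells and vessel growth were taken as a list of 27, all with a probe, of which 19 passed the count minimum. In edgeR's fit 8 of the 19 were higher and 11 lower in *Apcfl/fl* liver, with 0 past the adjusted threshold. Their median log2 fold change was -0.08, against 0.01 over all 174 tested. Of the 8 higher, miR-222 averaged 15.7 deposited counts in normal and 35 in *Apcfl/fl* liver. It passed the count minimum only through *Apcfl/fl* livers. At an unadjusted p-value under 0.05 in edgeR's test, 2 of the 19 were lower and 1 higher, beside 19 lower and 24 higher of all 174. The 24 included miRNAs, such as miR-155 (1 deposited count in normal liver), that passed the count minimum only through *Apcfl/fl* livers. Such miRNAs could only be higher, so these counts do not show whether the list stood out. The most abundant was miR-16, which restrains the cell cycle, at 1969 normalized counts in *Apc+/+* and 1867 in *Apcfl/fl* liver (log2 fold change -0.08, adjusted p = 0.87). It was followed by miR-130a, known to promote angiogenesis, at 942.7 and 1165 (0.31, adjusted p = 0.39), by miR-15a at 477.1 and 444.4 (-0.10, adjusted p = 0.83) and by miR-23a at 337.5 and 402.8 (0.25, adjusted p = 0.61). Several of these miRNAs occur in hepatocytes and other cells as well. The endothelial marker list itself held no other name than the strands of miR-126.

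Beside the values of miR-126, the levels of other cells' markers were as follows. Over all 174 tested miRNAs the fitted level was lower in *Apcfl/fl* liver for 86 and higher for 88. Some of the 88 passed the count minimum only through *Apcfl/fl* livers. All 4 hepatocyte miRNAs had a lower fitted level in *Apcfl/fl* liver, and their summed level was 27829 to 43638 normalized counts in *Apc+/+* and 9343 to 15633 in *Apcfl/fl* livers. Of the 5 mesenchymal miRNAs 4 were tested and all 4 were lower, with sums of 893.5 to 1317 and 322 to 724.9. Of the 8 blood cell miRNAs 7 were tested and 6 of these were higher, with sums of 1181 to 1643 and 1039 to 4949. Among these was miR-155, which stood at the floor of 1 count in all 3 normal livers, passed the count minimum only through *Apcfl/fl* livers and so could only be higher. MiR-142-5p, of the same list, stood at that floor in every liver. Of the 5 epithelial miRNAs of the bile duct 3 were tested and had a higher fitted level, while the other 2, under the count minimum, averaged 13.2 and 8.2 (miR-200c) and 7.89 and 7.31 (miR-141) normalized counts in normal and *Apcfl/fl* liver. The sums of all 5 overlapped (73.2 to 141 and 72 to 213), and miR-429 passed the minimum through *Apcfl/fl* livers (15 deposited counts in normal liver). None of these miRNAs had an adjusted p-value under 0.05 in edgeR's test. The lowest, 0.056 for miR-122, miR-148a and miR-145, was also the smallest over all 174 tested. The part of these markers in the values of miR-126 was not tested.

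Set against these markers within each liver, miR-126-3p stood higher relative to the hepatocyte and mesenchymal miRNAs in *Apcfl/fl* liver, a description that needs no scaling and was chosen after the values had been seen. Its count per summed count of the hepatocyte miRNAs was 0.119, 0.0846 and 0.0705 in normal liver, against 0.265, 0.164 and 0.231 in *Apcfl/fl* liver. Every *Apcfl/fl* liver lay above every control, by 2.42-fold on average (log2 difference 1.27, 1.10 to 1.48 when 1 liver was left out). The same held for 70% of the 170 tested miRNAs outside the hepatocyte list, whose sums did not overlap between the genotypes to begin with, so it is not particular to miR-126-3p. Against the mesenchymal miRNAs the ratios were 3.7, 2.48 and 2.6 in normal liver, against 7.68, 4.97 and 4.39 in *Apcfl/fl* liver, 1.91-fold higher on average. Every *Apcfl/fl* liver again lay above every control, as was found for 47.1% of the 170 tested miRNAs outside that list. Against the blood cell miRNAs they were 2.8, 2.67 and 1.87 in normal liver, against 2.38, 0.519 and 1.73 in *Apcfl/fl* liver, which overlapped and were 0.535-fold on average (log2 difference -0.90, -1.34 to -0.25 when 1 liver was left out, the latter without *Apcfl/fl* liver 2). These ratios restate levels given above and were not tested. Both sets of 170 miRNAs held some, such as miR-376b (3 deposited counts in normal liver), that passed the count minimum only through *Apcfl/fl* livers. Such miRNAs could only be higher, which adds to the 70% and the 47.1%. MiR-122 makes most of the hepatocyte sum, so that the ratio to the hepatocyte miRNAs mainly sets miR-126-3p against miR-122. The largest member of the mesenchymal sum was miR-145, at 619 normalized counts in normal liver. Its log2 fold change was -1.72, against -1.13 for miR-143, -0.72 for miR-199a-5p and -0.18 for miR-199a-3p. The last is close to the -0.23 of miR-126-3p.

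**Figure D4:**
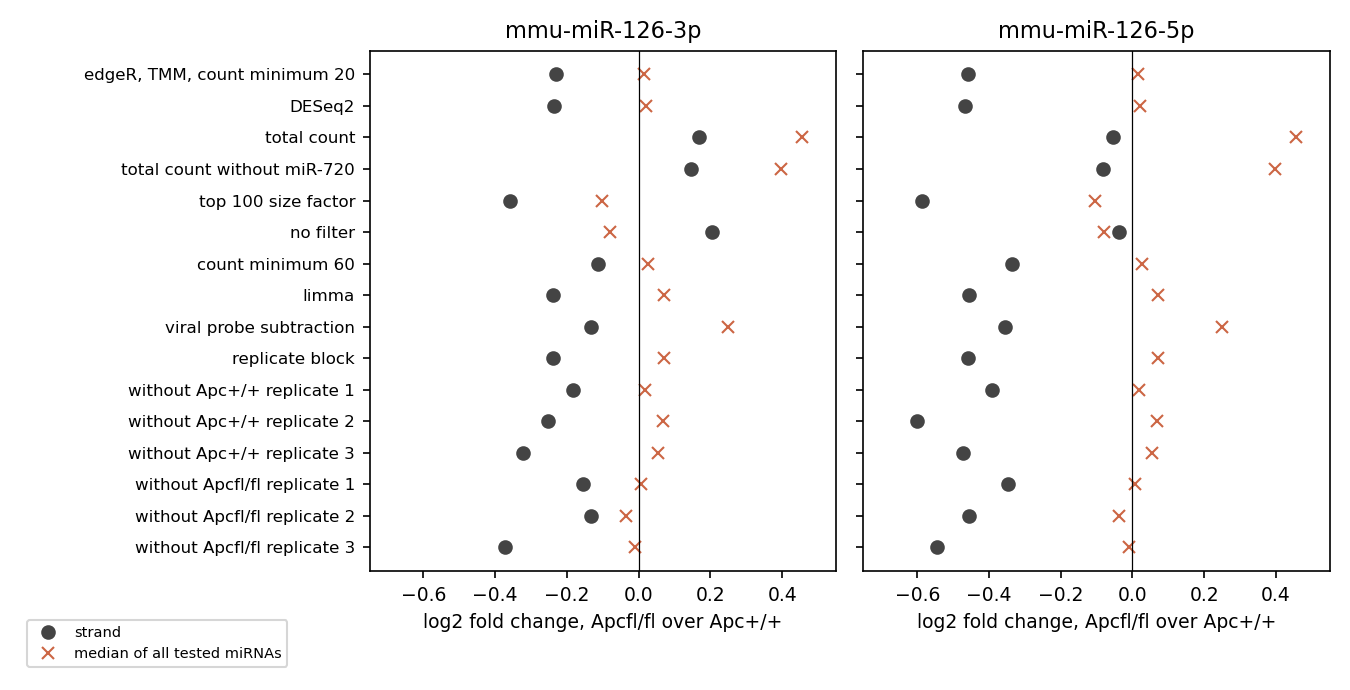
Log2 fold change of each strand (dots) between *Apcfl/fl* and *Apc+/+* liver in the reported fit (top line) and under each alternative in the processing, with the median of all tested miRNAs in the same fit (crosses). MiR-126-3p turns positive in 3 settings (0.15 to 0.21), and miR-126-5p stays between -0.60 and -0.04.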

How the data were processed

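The authors deposited an estimated count for each probe and liver, with no scaling from liver to liver. In 584 of 584 probes with at least 2 values above the floor, these shared a decimal part (equal to 2 decimals), as after subtraction of a constant, and 12.4% of values stood at a floor of 1 (0 of those of miR-126). How this was done is not given in the sources used here. Every value column belonged to 1 liver (0 left over).

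The values were not whole, as the tests need, and were rounded. The 174 mouse miRNAs that averaged 20 counts or more were compared over all 6 livers, genotype and liver number being taken from the labels, with edgeR 4.0.16 (quasi-likelihood test, TMM, Benjamini-Hochberg adjustment) in R 4.3.3. The log2 ratio of the arms was compared with limma 3.58.1 and an exact permutation test. Within a genotype, the chi-square between a pair of livers was 17.2 to 89.1 per degree of freedom. No pair thus differed by counting error alone, as a copy or recount would. Whether any pair shares a source cannot be told from this value.

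The named miRNAs were both strands, the 5 nearest in pattern to each, the arms of hairpins that could be tested, and the 4 most abundant of the endothelial and angiogenic list. Further names were chosen with their values in view, as more abundant than miR-126-3p, as alike in spread or as a list member with a limit. The members and lists were chosen with earlier results of these data known, and the lists were written from general knowledge. On simulated data (174 miRNAs, 10 runs), edgeR called 2.62% of the miRNAs changed 2-fold and 66.8% of those changed 4-fold. Alternatives were DESeq2 1.42.0, limma, other scalings and count minimums, viral probe subtraction, a replicate block and each liver left out.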

Additional observations from a re-analysis of the deposited data

How the results depend on the processing

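Neither strand had an adjusted p-value under 0.05 in any of 15 alternatives (0.29 to 0.83 for miR-126-3p and 0.097 to 0.97 for miR-126-5p). MiR-126-3p turned from -0.23 to 0.17 with the total count as library size, 0.15 with that total less miR-720 and 0.21 with no filter. Measured from the median over the tested miRNAs, it was at -0.24 in the reported fit and at -0.29, -0.25 and 0.28 in these 3. With 1 liver left out it ran from -0.37 without *Apcfl/fl* replicate 3 to -0.13 without *Apcfl/fl* replicate 2. MiR-126-5p was below 0 in all 15 (-0.60 to -0.04), but measured from the median it was at 0.04 with no filter, against -0.47 in the reported fit. The ratio of the strands stayed higher in *Apcfl/fl* liver in all 9 of its alternatives (0.12 to 0.34 on the log2 scale), the lowest without *Apc+/+* replicate 3 and the highest without *Apc+/+* replicate 2.

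The number of miRNAs past the adjusted threshold, 0 in the reported fit, was 29 with DESeq2, 17 with the total count, 21 with that total less miR-720, 7 with the size factor from the 100 most abundant miRNAs, 18 with a count minimum of 60, 4 with limma, 15 with viral probe subtraction and 7 with the replicate block, and 0 to 19 with 1 liver left out, with 19 without *Apcfl/fl* replicate 3, 8 without *Apcfl/fl* replicate 2 and 1 without *Apcfl/fl* replicate 1. In the reported fit the smallest adjusted p-value of edgeR's test was 0.056, shared by several miRNAs and thus close to the threshold. The cause of the differences in number was not tested. Mice of the same number did not deviate together (correlations -0.08, -0.09 and 0.14), and with the replicate block the log2 fold changes were -0.24 for miR-126-3p and -0.46 for miR-126-5p.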
